A study of Mus musculus with 14 samples.

Results

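The regions described here are stretches of open chromatin that the deposited peak lists place in citraconate-treated ZFTA-RELA mouse neural stem cells. The DMSO libraries grouped with these by title, which are labelled as empty vector cells, have no peak there. Peaks of the 2 Citraconate_50K and 2 DMSO_50K lists on chromosomes 1 to 19 were merged wherever they shared at least 1 bp, which gave 67999 regions. The 881 regions overlapped by a peak in both Citraconate_50K lists and by none in either DMSO_50K list were kept, at the full deposited length of every list. They were thus chosen by the presence of deposited peaks in these 4 lists, and everything measured in the 4 lists is given as description, with no test. They make up 1.30% of the merged regions. The opposite set, present in both DMSO_50K lists and in neither Citraconate_50K list, holds 20147 regions (29.6%), and 19445 regions had a peak in all 4 lists.

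Accessible DNA was profiled by ATAC-seq, a transposase-based assay, on 50000 cells per library. All 14 libraries came from cultured mouse neural stem cells that carried either an empty vector or ZFTA-RELA, the fusion found in a class of supratentorial ependymoma, and each of 7 groups had 2 libraries. The second series comprised DMSO_50K, labelled as empty vector cells with DMSO or vehicle, and Citraconate_50K, labelled as ZFTA-RELA cells with 10 mM citraconate. The first series comprised empty vector cells (EV, 1 library labelled with DMSO and 1 with PBS as vehicle), ZFTA-RELA cells with PBS vehicle (ZR), ZFTA-RELA cells titled DMSO but labelled with PBS vehicle (ZR_DMSO), ZFTA-RELA cells with 10 µM GSK343, an inhibitor of the methyltransferase EZH2 (ZR_GSK343), and ZFTA-RELA cells titled dmCitra and labelled with 10 mM citraconate (ZR_dmCitra). The labels give 24 h or 48 h for citraconate without saying which library had which time, and 96 h for GSK343. Whether the 2 libraries of a group came from separate cultures is not stated, and p-values measure only the spread between these libraries, which may be technical.

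Citraconate is an isomer of itaconate, the metabolite that ACOD1 makes from the citric acid cycle intermediate cis-aconitate, and the series names citraconate as an ACOD1 antagonist. Both isomers are electrophiles that can modify cysteines of KEAP1. KEAP1 otherwise holds the transcription factor NRF2 for degradation, and freed NRF2 joins small MAF proteins on antioxidant response elements and turns on genes for glutathione synthesis, thioredoxin cycling, iron storage and heme breakdown. Accessible regions found by ATAC-seq include promoters and enhancers, and a transcribed gene body or the stretch past a gene's end can also give signal.

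Few of the 881 regions lay on a gene start: 19 overlapped 20 of the 31396 promoter windows of RefSeq (build GRCm38.p6, 250 bases before to 50 bases after a start). The 3 windows below show the promoters on which the gene results turn, 5′ to 3′ on the gene's strand, with any antioxidant response element core in capitals. The core searched was TGACNNNGC on both strands. Gsta3 encodes a glutathione S-transferase, and its window at chr1:21240335-21240634, plus strand, lay under a citraconate-only region. Cacnb4 encodes a calcium channel beta subunit, and its window at chr2:52676094-52676393, minus strand, also lay under a citraconate-only region. Gclm encodes the modifier subunit of glutamate-cysteine ligase, and its window at chr3:122245307-122245606, plus strand, had a peak in all 14 lists while citraconate-only regions lay elsewhere at the gene.
Gsta3: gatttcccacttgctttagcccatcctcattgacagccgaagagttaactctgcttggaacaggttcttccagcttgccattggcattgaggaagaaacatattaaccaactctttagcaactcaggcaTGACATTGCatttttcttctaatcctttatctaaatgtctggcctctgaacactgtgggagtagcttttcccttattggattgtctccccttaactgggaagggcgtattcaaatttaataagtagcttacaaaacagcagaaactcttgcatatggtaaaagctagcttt
Cacnb4: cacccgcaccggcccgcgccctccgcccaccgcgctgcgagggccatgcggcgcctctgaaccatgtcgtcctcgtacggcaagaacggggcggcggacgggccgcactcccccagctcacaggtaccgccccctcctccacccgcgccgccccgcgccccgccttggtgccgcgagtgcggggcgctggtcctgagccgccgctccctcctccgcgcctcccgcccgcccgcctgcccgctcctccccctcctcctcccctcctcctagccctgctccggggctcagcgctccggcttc
Gclm: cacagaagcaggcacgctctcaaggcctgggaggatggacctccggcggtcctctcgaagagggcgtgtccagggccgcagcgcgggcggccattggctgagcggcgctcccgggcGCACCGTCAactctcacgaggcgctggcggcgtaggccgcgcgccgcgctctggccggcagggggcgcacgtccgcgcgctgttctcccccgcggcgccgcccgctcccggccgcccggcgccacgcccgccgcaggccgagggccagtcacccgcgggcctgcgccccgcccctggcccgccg
The core began 121 bases before the Gsta3 start and 134 bases before the Gclm start, and these letters were not in the Cacnb4 window. It was present in 3 of the 20 windows under citraconate-only regions (15.0%), in 12.5% of all windows and in 14.6% of the 12569 windows under any second-series region, so the share among the windows under citraconate-only regions was near both. The other windows under these regions with the core were those of the predicted genes Gm829 and Gm36043.

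The group labels of the second series were checked against the first series before use. Of 16194 regions with peaks in both ZR lists and neither EV list, the DMSO_50K lists, labelled empty vector, had peaks at 74.9% and 81.3%. Of 11318 regions with peaks in both EV lists and neither ZR list, they had peaks at 16.5% and 20.5%. The peaks of the libraries labelled empty vector therefore lay mainly where the first-series fusion lists have peaks, against their label. The Citraconate_50K lists had peaks at 40.8% and 38.3% of the former regions and at 4.74% and 4.09% of the latter. By the labels, citraconate and the fusion cannot be told apart in this contrast. List length also differed: the DMSO_50K lists held 52771 and 60472 peaks, the Citraconate_50K lists 31864 and 29574, and the first-series lists between 12554 and 57634. Of 6 neural stem cell markers, 1, 1, 2 and 1 had a peak at a gene end in the second-series lists, against 5 and 5 in EV. The counts were 2 and 1 in ZR, 0 and 1 in ZR_DMSO, 1 and 2 in ZR_GSK343 and 1 and 1 in ZR_dmCitra. Sox2, Sox1 and Pax6 were among those without a peak in any second-series list, and Pax6 had none in any of the 14 lists. Hes5 had a peak in all 4 second-series lists.

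The citraconate-only regions were mostly narrow and weak within their own lists. Their width ranged from 152 to 2579 bp with a median of 379 bp, against 517 bp over all second-series regions, 516 bp for the DMSO-only set and 1118 bp for regions in all 4 lists. Fold enrichment here is the authors' own value for each peak and is used only within a list. The median was 6.24 in Citraconate_50K replicate 1 (range 4.16 to 97.2) and 6.66 in replicate 2 (range 4.44 to 97.2). By −log10 q the median region stood at the 31.1st percentile of the replicate 1 list and at the 28.4th of the replicate 2 list, where regions in all 4 lists stood at 68.8 and 66.3. Fold values in each list were whole multiples of a smallest step to within 0.02 of a step, and the median citraconate-only region stood at 12 steps in both lists and the lowest at 8.

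The threshold of the rule is whether a peak was called, and peaks near it on both sides were weak in their own lists. Just inside, the regions nearest Kcnq5 (chr1:22055148-22055570) and Raet1d (chr10:22400417-22400706) had folds of 4.68 and 4.44 in the 2 Citraconate_50K lists. Just outside, the regions nearest Cap2 (chr13:46534014-46534749) and Asph (chr4:9605369-9605844) were kept out by a DMSO_50K replicate 2 peak of fold 4.16 and −log10 q 3.56, the weakest that kept a region out. A further 892 regions had peaks in both Citraconate_50K lists and in exactly 1 DMSO_50K list, 699 of them in replicate 2 and 193 in replicate 1. The nearest DMSO_50K peak lay at a median distance of 6.41 kb from a citraconate-only region, and 82 of the 881 (9.31%) had such a peak within 500 bp.

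Only 11 citraconate-only regions stood at the 75th percentile or above in both lists, and 10 of these were under 350 bp wide. The strongest was the narrowest, a 152 bp region 456215 bp from Diaph3 (chr14:86198991-86199142), which encodes a formin that nucleates actin filaments. It had a fold of 97.2 in both lists and no peak in any first-series list. The next, a 162 bp region 5415 bp from the C-type lectin gene Cd209a (chr8:3754399-3754560), had folds of 50.4 and 54.4 and a peak in all 10 first-series lists, where folds ran from 21.3 to 60.3. Strong narrow regions thus recurred in anything from 0 to 10 first-series lists, as the plot of width against rank shows.

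**Figure D1:**
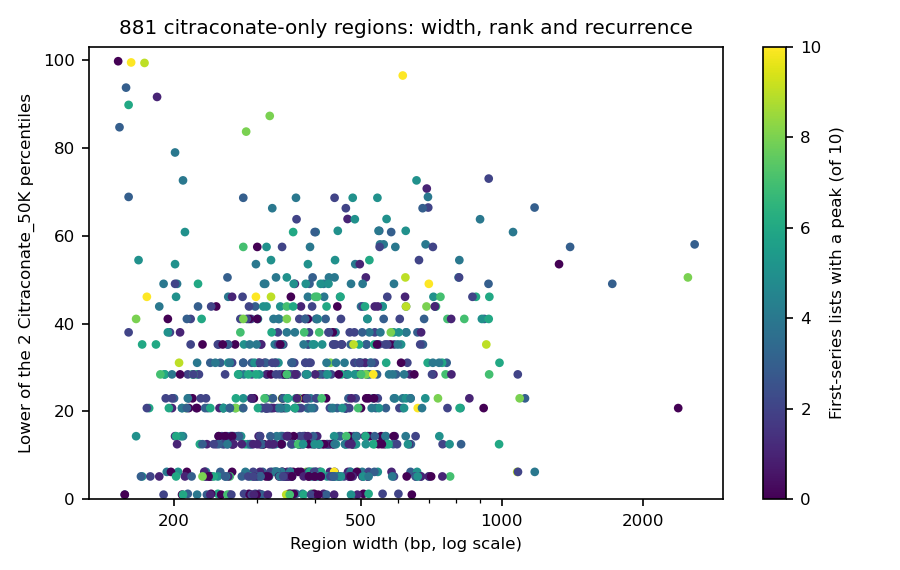
Each point is 1 of the 881 citraconate-only regions, placed by its width in bp (log scale) and by the lower of its 2 Citraconate_50K percentiles, and coloured by the number of first-series lists, from 0 to 10, with a peak there. Most points lie under the 50th percentile, the highest are nearly all under 350 bp wide, and the widest region, 2579 bp, is not among the highest.

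Citraconate-only regions lay mostly away from gene starts, and their share on the 3′ side of genes was above that of second-series regions as a whole. A gene end within 1 kb was found for 86 of them (9.76%), against 17.7% of all second-series regions, 3.99% of the DMSO-only set and 45.5% of regions in all 4 lists. Inside a protein-coding gene lay 452 (51.3%, against 56.7% overall), and the median distance to a gene end was 15.64 kb (18.62 kb overall). Strand was known for the nearest gene of 704 regions. Of these, 144 (20.5%) lay within 10 kb of the 3′ end, as the nearer end, against 11.7% over all regions, and 135 (19.2%) lay within 10 kb of the 5′ end, against 28.1%. Past the 3′ end by at most 10 kb lay 71 (10.1%, against 6.03% overall). In regions with peaks in both Citraconate_50K lists and 1 DMSO_50K list that share was 10.2%. These positions describe the set the rule chose and were not tested.

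Many of the widest citraconate-only regions lay at or past the 3′ ends of genes. Of 14 regions at least 1000 bp wide, 7 (50.0%) overlapped a 3′ end or lay past one within 5 kb, against 13.7% of 14141 such regions in the second series and 5.91% of 1557 in the DMSO-only set. The genes at these 7 regions were Sqstm1, Malat1, Ptgr1, Gclm, Ubb, Srxn1 and Per1, of which Gclm and Srxn1 are on the NRF2 target list used below. The wide region past Gclm lay nearer the start of the next gene, Dnttip2, and was not counted for the NRF2 list. This look at wide regions was chosen after their values were seen, and width comes from the same peaks as the rule, so the share is a description.

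The widest region of all (chr11:50196138-50198716, 2579 bp) lay 1436 bp past the 3′ end of Sqstm1, the autophagy receptor p62 and a known NRF2 target, and inside the neighbouring gene Mrnip. Its fold was 9.88 and 10.0 in the Citraconate_50K lists, 5.71 and 6.37 in ZR_dmCitra and 8.18 in ZR_GSK343 replicate 2, with no peak in the other 7 first-series lists. A region of 2379 bp over the 3′ end of Ptgr1 (chr4:58963370-58965748), the prostaglandin reductase that clears reactive aldehydes, had folds of 6.76 and 6.11 and no first-series peak. At Ubb, a polyubiquitin gene that stress induces, a region of 1325 bp began 1635 bp past the 3′ end (chr11:62554848-62556172), with folds of 8.32 and 10.0 and no first-series peak. The region past Sqstm1 thus had peaks in both ZR_dmCitra lists and, with a higher fold, in ZR_GSK343 replicate 2, so its recurrence was not particular to citraconate. By nearest gene end it was counted for Mrnip. The Ptgr1 and Ubb regions did not recur in any first-series list. The wide region 389 bp past Malat1, an abundant nuclear long non-coding RNA (chr19:5792807-5795301), was unlike these, with folds of 10.9 and 8.88 and a peak in 8 of 10 first-series lists, EV included. At Per1, a circadian repressor, the region 176 bp past the 3′ end (chr11:69110141-69111222) had folds of 9.36 and 6.66, and 5.19 and 5.31 in the 2 ZR_dmCitra lists only.

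Among 16 gene lists, citraconate-only regions were most frequent at NRF2 targets. The list was made with earlier results of these data known. Of 125 second-series regions nearest, and within 100 kb of, its 21 genes, 12 were citraconate-only (9.60%), at 6 genes, against 731 of 55018 (1.33%) over all protein-coding genes. Of citraconate-only regions within 100 kb of a gene, 1.64% were nearest these genes, against 0.227% of all such second-series regions. The number depended on the rule: it was 6 of 659 regions with −log10 q of at least 5 and 16 of 3920 with the 4 lists cut to the shortest. It was 20 of 3074 without Citraconate_50K replicate 1 and 30 of 4344 without replicate 2. Each of these is a lower share than 12 of 881, and the share over all regions was not computed for these settings. DMSO-only regions made up 21 of the 125 (16.8%) against 26.1% over all genes. The genes were Srxn1 with 6 regions, Gclm with 2, and Txnrd1, Tkt, Ftl1 and Hmox1 with 1 each. The other 15 genes of the list, Nqo1, Gclc and Slc7a11 among them, had none.

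Srxn1, sulfiredoxin, returns over-oxidised peroxiredoxins to their active form. Its 6 regions ran over chr2:152112984-152121381, all past the 3′ end of the gene (chr2:152105524-152111376), from 1608 to 9240 bp beyond it. Their folds ran from 5.20 to 7.80 in Citraconate_50K replicate 1 and from 5.00 to 9.44 in replicate 2. The region at chr2:152118031-152119751 was the highest and widest of the 6, with folds of 7.80 and 9.44, and of 8.82 and 7.43 in ZR_dmCitra and 4.09 in ZR_GSK343 replicate 2. Both ZR_dmCitra lists had a peak in 5 of the 6 regions, ZR_GSK343 replicate 2 in 2, and the other 7 first-series lists in none.

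Counting every deposited peak that starts within 10 kb past the Srxn1 end, the Citraconate_50K lists held 7 and 7, covering 3842 and 3651 bp, and the ZR_dmCitra lists 9 and 6, covering 6053 and 4042 bp. The DMSO_50K lists held 0 and 1, EV 1 and 1, ZR 1 and 1, ZR_DMSO 0 and 0, and ZR_GSK343 0 and 2. The second-series counts follow from the rule, since the stretch was picked for its citraconate-only regions. Among the first-series lists, which the rule did not use, both ZR_dmCitra lists were above every other list at this stretch. At the Srxn1 start no list had a peak in the promoter window, although the core was found there. Past the end of Gclm the same count gave 4 and 4 for Citraconate_50K, 3 and 4 for ZR_dmCitra, 1 and 2 for ZR, and 1 in each of the other 8 lists.

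**Figure D2:**
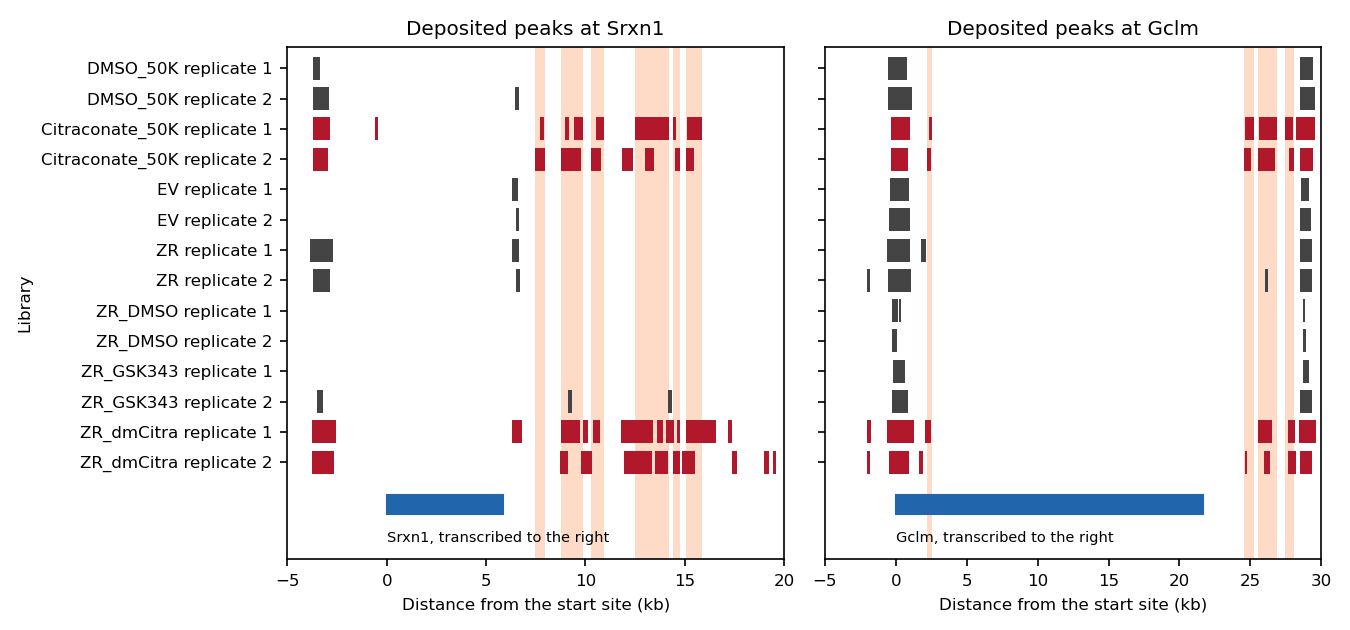
Deposited peaks of all 14 libraries at Srxn1 (left) and Gclm (right), by distance from the start site in kb. Dark red bars are peaks of the 4 libraries from citraconate-treated cells, grey bars those of the other 10, shaded bands the citraconate-only regions and the blue bar the gene. Past the Srxn1 end the Citraconate_50K lists hold 7 and 7 peaks and the ZR_dmCitra lists 9 and 6, and no other list holds more than 2. The rule used the Citraconate_50K and DMSO_50K lists and not the others.

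Gclm and its partner Gclc form the enzyme that limits glutathione synthesis. A region inside the gene at chr3:122247730-122248115 had folds of 5.20 and 7.22, and 7.27 in ZR_dmCitra replicate 1 only. The region 2906 bp past its end at chr3:122270121-122270793 had folds of 6.76 and 8.88, and 6.90 in ZR_dmCitra replicate 2 only. A pair of further regions between Gclm and the next gene, Dnttip2, were counted for Dnttip2 because its start is nearer. The wider of them, chr3:122271069-122272467, had folds of 8.84 and 10.0, and 10.4 and 10.1 in ZR_dmCitra and 5.92 in ZR replicate 2.

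The remaining regions of the list were single. Txnrd1, thioredoxin reductase, had one 2021 bp past its 3′ end (chr10:82899745-82900399), with folds of 5.72 and 5.00, and 5.84 in ZR_dmCitra replicate 2 only. Tkt, the transketolase of the pentose phosphate pathway, had one inside the gene (chr14:30564423-30564762), with folds of 7.28 and 7.22, 9.86 and 8.49 in ZR_dmCitra, 6.95 in EV replicate 1 and 7.46 in ZR replicate 1. Tkt was the 1 gene of the 6 whose region also had peaks in EV and ZR. Ftl1, the ferritin light chain, had a region inside the gene with folds of 5.20 and 6.11. Hmox1, heme oxygenase, had one 1726 bp outside the gene (chr8:75102319-75102584) with folds of 5.20 and 6.66. The regions at Ftl1 and Hmox1 had no first-series peak.

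**Figure D3:**
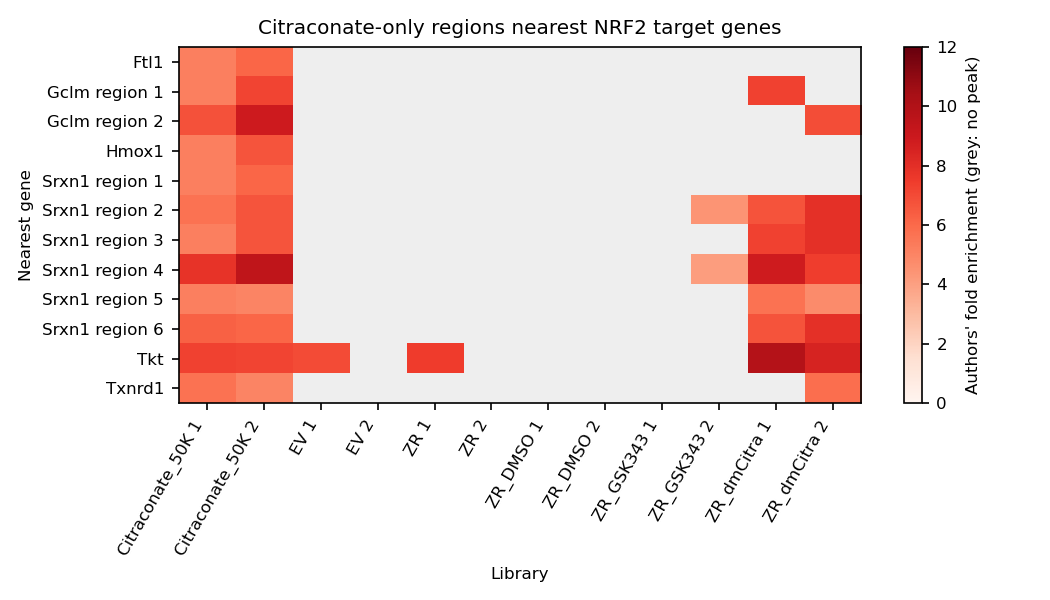
Authors' fold enrichment of the 12 citraconate-only regions nearest NRF2 target genes (rows, 1 region each) in 12 libraries (columns), with grey where a list has no peak; the DMSO_50K lists have none by the rule. ZR_dmCitra has peaks in 7 and 8 of the 12, and ZR in 1 and 0. Of the 12 regions, 6 are neighbours in the stretch past Srxn1.

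Over the 10 first-series lists, which the rule did not use, the 12 regions had a peak in 7 (58.3%) and 8 (66.7%) of ZR_dmCitra, 1 and 0 of EV, 1 and 0 of ZR, 0 and 0 of ZR_DMSO, and 0 and 2 of ZR_GSK343. Of the 12 regions, 6 are neighbours in the stretch past Srxn1, and most of the ZR_dmCitra peaks lay there. The 12 are therefore not independent loci. Outside Srxn1 only the Tkt region had a peak in both ZR_dmCitra lists. The ZR_dmCitra shares were near those of all citraconate-only regions given below, and the ZR shares were lower than theirs. Taking all peaks within 20 kb of the 21 genes, the Citraconate_50K lists had 3.51 and 3.11 peaks per 1000 of the list, DMSO_50K 1.74 and 1.71, ZR_dmCitra 2.65 and 2.32, and ZR 1.73 and 1.74. EV had 2.00 and 1.87, ZR_DMSO 2.20 and 1.60, and ZR_GSK343 1.69 and 1.41. In both series the citraconate libraries were the highest by this measure and did not overlap any other group. The second-series values come from the lists the rule used, at loci that hold citraconate-only regions, so they are a description. The measure was not computed for other gene lists, so a rise particular to these genes was not tested. The measure divides by list length, and the undivided counts overlapped in the second series, with 108 and 89 peaks in Citraconate_50K and 89 and 100 in DMSO_50K. In the first series they were 117 and 99 in ZR_dmCitra and at most 79 in the other 8 lists.

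The first series was also called on its own, without reference to the second. Merging the ZR_dmCitra and ZR lists gave 61115 regions, of which 2926 (4.79%) had peaks in both ZR_dmCitra lists and neither ZR list, and 3181 the reverse. Near NRF2 targets 15 of 112 regions (13.4%) were called, at 7 genes, against 2310 of 50784 (4.55%) over all protein-coding genes, and 1 was called in reverse. The 15 were 6 at Srxn1, 2 each at Gsr (glutathione reductase), Hmox1 and Slc7a11 (the cystine importer), and 1 each at Gclc, Gclm and Abcc1. Of these, 10 did not overlap a citraconate-only region and the other 5 were at Srxn1. Interferon response genes had 4 of 31 (12.9%) and housekeeping genes 5 of 54 (9.26%) called, so NRF2 targets were not alone above the overall share. Interferon genes had 0 citraconate-only regions in the second series.

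The other lists held few or no citraconate-only regions. Housekeeping genes had 2 of 56 (3.57%), also above the 1.33% over all genes. NF-kB targets had 1 of 89, at Ccl2, itaconate and citric acid cycle genes 1 of 67, at Suclg2, neuron genes 1 of 94, at Snap25, oligodendrocyte genes 1 of 36, at Pdgfra, and cilia and ependyma genes 1 of 51, at Dnah11. Stress and AP-1, interferon, Polycomb, neural stem, astrocyte, microglia, mesenchymal and vascular, ependymoma fusion signature, and Hox and developmental lists had 0. The neuron, oligodendrocyte and cilia lists together gave 3 of the 881 regions. Those at Snap25 and Pdgfra had peaks in both ZR and both ZR_dmCitra lists, and that at Dnah11 in both ZR_DMSO lists and neither of those. At Pdgfra, the receptor that marks oligodendrocyte precursors, the region 9812 bp past the gene (chr5:75208018-75208352) had folds of 7.28 and 6.11, with 10.7 and 10.2 in ZR and 25.4 and 20.7 in ZR_dmCitra. The Ccl2 region over an end of this chemokine gene (chr11:82035255-82035731) had folds of 7.80 and 12.8, with peaks of 12.8 and 14.5 in ZR, 9.55 in ZR_GSK343 replicate 2 and 7.27 in ZR_dmCitra replicate 1, and none in EV.

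At gene starts, the Gsta3 region (chr1:21240120-21240667) had folds of 10.9 and 10.5, 12.5 and 13.3 in ZR_dmCitra and 6.92 in ZR replicate 1, with no peak in the other 7 first-series lists. Blvrb, biliverdin reductase B, which follows heme oxygenase in heme breakdown, had a region 771 bp inside the gene (chr7:27448749-27449805) with folds of 9.36 and 10.5. There ZR_dmCitra had 9.34 and 6.90, and ZR replicate 2 and ZR_GSK343 replicate 2 had 4.84 and 4.77. Neither gene was on the NRF2 list, and both were named as the strongest regions at gene ends. The Cacnb4 region (chr2:52676209-52676755), over a start with 40 CpG dinucleotides in the printed window, had folds of 7.28 and 7.22, and in the first series only the 2 ZR_dmCitra lists had a peak in that window.

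Across the whole set, citraconate-only regions had peaks in the first-series citraconate libraries more often than in any other group. ZR_dmCitra had a peak at 63.7% and 60.5% of the 881, ZR at 39.8% and 41.0%, EV at 13.7% and 20.1%, ZR_DMSO at 10.3% and 13.96%, and ZR_GSK343 at 15.2% and 43.0%. Over all 67999 regions the order was different, with ZR_dmCitra at 51.2% and 49.6% and ZR at 52.9% and 52.2%. Both ZR_dmCitra libraries were above both ZR libraries in the citraconate-only set and below both in the whole.

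The difference of ZR_dmCitra over ZR was 21.7 ± 2.39 percentage points (SD of the difference, n = 2 libraries a group; exact permutation p = 0.333, two-sided), and 2 against 2 libraries cannot give a p below 0.333. The same difference was -2.14 over all second-series regions, -9.22 in the DMSO-only set and 8.86 in regions with both Citraconate_50K and 1 DMSO_50K peak. Against ZR_DMSO the difference was 49.9 ± 3.41 points (exact permutation p = 0.333), where all regions gave 32.2 and regions with 1 DMSO_50K peak 54.4. Every first-series list was also cut to the length of the shortest, 11806 peaks. The difference of citraconate-only regions against ZR_DMSO then turned to -2.50 points, while that against ZR was 5.22. ZR exceeded EV by 23.5 ± 4.57 points (exact permutation p = 0.333), against 19.8 over all regions, and by 0.284 points with the lists cut (exact permutation p = 1). ZR_GSK343 exceeded ZR_DMSO by 17.0 ± 19.8 points (exact permutation p = 0.333), within its spread, and by 3.06 points without ZR_GSK343 replicate 2. The 8 fusion libraries exceeded the 2 EV libraries by 19.03 ± 21.3 points (exact permutation p = 0.356 over 45 splits), which is also within the spread. These 8 libraries pool different treatments and are not replicates of a single condition.

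**Figure D4:**
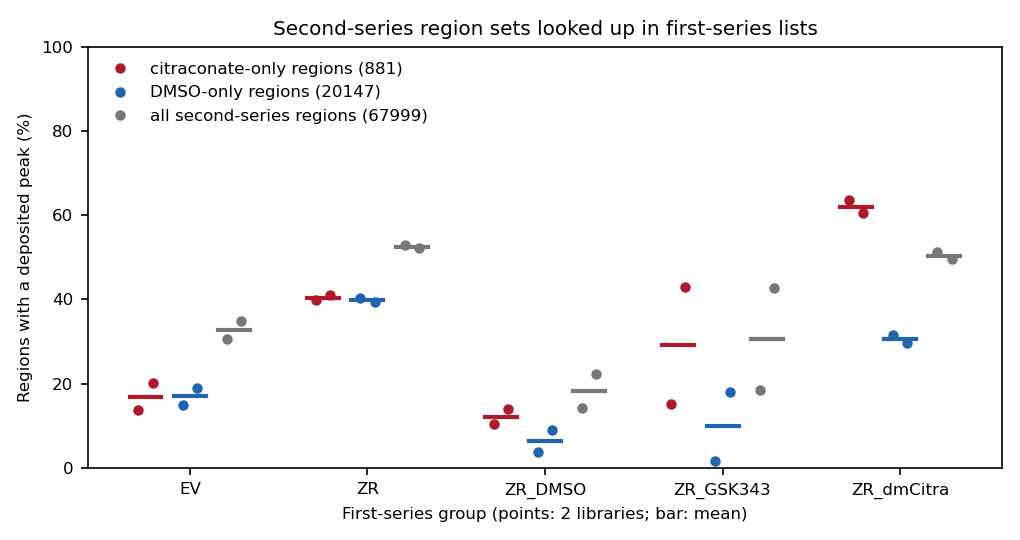
Percent of regions with a deposited peak in each of the 10 first-series libraries (points) and the mean of each group (bar), for citraconate-only (red), DMSO-only (blue) and all second-series regions (grey). In ZR_dmCitra the citraconate-only regions, at 63.7% and 60.5%, lie above both other sets, and in ZR, at 39.8% and 41.0%, they lie below all regions.

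Region by region, 136 of the 881 (15.4%) had peaks in both ZR_dmCitra lists and neither ZR list, where the background over all second-series regions was 2.27%. The share was 1.80% in the DMSO-only set and 7.40% in regions with 1 DMSO_50K peak. The reverse held for 17 (1.93%, background 3.51%). With the ZR_dmCitra and ZR lists cut to the shortest of the 4, the count was again 136, and with all first-series lists cut to the shortest of the 10 it was 31. Peaks in both ZR_dmCitra and neither ZR_DMSO list were found for 406 (46.1%, background 22.8%) and the reverse for 20 (2.27%, background 0.156%), so both directions were above background. In regions with 1 DMSO_50K peak these shares were 46.9% and 1.35%, so the former share was not particular to citraconate-only regions. Both ZR and neither EV list held peaks at 180 (20.4%, background 20.2%) and the reverse at 18 (2.04%, background 3.94%), which is near the background for the former. Both ZR_GSK343 and neither ZR_DMSO list held peaks at 39 (4.43%, background 4.71%) and the reverse at 6 (0.681%, background 0.553%), both near background.

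Where a first-series peak was present at a citraconate-only region, its median percentile in the list was 46.6 and 44.5 in ZR_dmCitra, 32.3 and 32.9 in ZR, 26.6 and 34.6 in EV, 62.2 and 65.1 in ZR_DMSO and 67.2 and 59.6 in ZR_GSK343. ZR_dmCitra thus stood above ZR and EV by this rank and below ZR_DMSO and ZR_GSK343. Peaks in both ZR_dmCitra lists were found at 462 regions (52.4%, against 44.9% of all second-series regions). At least 1 of these lists had a peak at 632 (71.7%, against 55.9%) and neither at 249 (28.3%, against 44.1%). Peaks in both ZR_dmCitra lists and no other first-series list were found at 102 regions (11.6%, against 1.43% of all second-series regions).

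The highest ranked of those 102 was a region of 938 bp deep inside Nrxn3, a presynaptic neurexin (chr12:89913480-89914417), with folds of 11.96 and 17.8 in Citraconate_50K and 21.8 and 20.2 in ZR_dmCitra. It also ranked first of the 406 regions, described above, with peaks in both ZR_dmCitra and neither ZR_DMSO list. The next (chr4:128373070-128373509) lay inside Csmd2, with its nearest gene end 112175 bp away at Hmgb4. It had folds of 10.9 and 12.2, and of 9.34 and 11.7 in ZR_dmCitra. A region 356350 bp from Dynlrb2, a dynein light chain gene (chr8:116148201-116148665), had folds of 10.4 and 11.7, and of 22.3 and 15.4 in ZR_dmCitra. One inside Gng4, a G protein gamma subunit gene (chr13:13824811-13825175), had 9.88 and 11.7, and 8.82 and 9.02 in ZR_dmCitra. The fifth and the sixth were the regions nearest Arid1b (chr17:4492484-4493196, 501101 bp away) and Vrk3 (chr7:44792477-44793142, 14962 bp away), with ZR_dmCitra folds between 5.19 and 6.90. These 6 have peaks in 4 of 4 citraconate lists and 0 of 10 others by the way they were chosen, so that split is not a result.

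Other regions that ranked high among the 406 had peaks in ZR as well. Inside Adck1 (chr12:88428687-88429382), a mitochondrial kinase-like gene, folds were 10.9 and 16.1, with 6.39 and 6.45 in ZR and 30.1 and 27.1 in ZR_dmCitra. Inside Scaf11 and 2705 bp from Gm41408 (chr15:96448841-96449204) they were 10.9 and 12.2, with 6.39 and 9.68 in ZR and 25.4 and 15.9 in ZR_dmCitra. Inside Adk, adenosine kinase (chr14:21268087-21268629), they were 12.5 and 12.2, with 8.52 and 11.8 in ZR, 11.3 in ZR_GSK343 replicate 2 and 11.9 and 13.8 in ZR_dmCitra. Lists were scaled separately, so these folds were not compared across lists by a test.

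A smaller part of the set was open almost everywhere in the first series. Peaks were found in 0 of the 10 lists at 109 regions (12.4%, against 27.9% of all second-series regions). They were found in 2 lists at 164 (18.6%, against 9.59%) and in 4 at 134 (15.2%, against 7.83%). In 6 lists they were found at 66 (7.49%, against 6.23%) and in all 10 at 9 (1.02%, against 7.67%). The shares in 8, in 9 and in 10 lists were each below those of all second-series regions. Of the 39 regions in at least 8 lists, 32 had peaks in both ZR_DMSO lists, 1 of them the shortest of the series. A region in at least 8 of the 10 lists can lack few of them, so that number is largely set by the condition. Of the 881, 82 had peaks in both ZR_DMSO lists (9.31%, against 12.4% of all regions). Regions in all 10 lists included those at Cd209a and Efcab11 and 3 at Sfi1 and Gm51877 on chromosome 11. At Efcab11 (chr12:99645061-99645675) the folds were 32.2 and 31.1, and from 7.46 to 35.4 in the first series, where both EV libraries were above both ZR libraries. These regions were therefore missing from the DMSO_50K lists and not from DMSO or vehicle lists of the first series.

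Some regions of this kind lay in clusters at Sfi1 and at predicted genes of chromosome 8, where near-identical copies can make the placement of reads uncertain, which was not tested. A stretch of chromosome 8 (chr8:19701057-20704790) held 17 citraconate-only regions among its 128 second-series regions, with peaks in 4 to 10 first-series lists (median 8), and in both ZR_DMSO lists for 14. The predicted genes Gm21119 and Gm40469 within it were nearest to 8 and 6 of them. Sfi1 on chromosome 11 had 5, in 8 to 10 lists, whereas the 6 at Srxn1 were in 0 to 3 lists. By chromosome the share of second-series regions that were citraconate-only was highest on 17 (2.00%), 8 (1.87%) and 7 (1.78%) and lowest on 9 (0.691%). In all, 105 regions (11.9%) lay within 10 kb of another citraconate-only region.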

How the data were processed

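The deposited lists are ATAC-seq peaks of 14 libraries in narrowPeak form. Per the submitters' processing notes the tools included BWA, SAMtools and Picard and the build was mm10; no source used here names the peak caller or its settings. Each list carries the authors' display score, the authors' fold (a ratio of signal over background), the −log10 p and −log10 q deposited with each peak, and a summit offset. No counts are in the lists, so depth is unknown and no interval for it is given. Fold and −log10 q were used only within a list, as values or percentiles.

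Samples were grouped by the labels' titles. Regions were merged, called by presence in lists and assigned to the nearest RefSeq protein-coding gene (GRCm38.p6, the same primary assembly), counted for gene lists within 100 kb. Strand came from the promoter table, which covers 16456 of 20661 protein-coding genes. Shares were compared over libraries by two-sided exact permutation tests (SciPy 1.17.1, pandas 2.3.3). The calling was tested on simulated data. The regions and gene lists were chosen with earlier results of these data known. Regions were ranked by the lower of their 2 Citraconate_50K percentiles. The text names regions from the best 12 of all, the best 6 each at gene ends, in both ZR_dmCitra and neither ZR_DMSO list, in all 10 first-series lists and in none, those at the 5 genes with most regions, up to 4 per gene list and the nearest outside the rule. The other regions at NRF2 targets, the wide regions, the windows at gene starts and those in ZR_dmCitra lists alone were chosen after their values were seen. Replicate numbers did not pair the libraries. Sex chromosomes were left out because of the rule, and the genes of the 2 housekeeping regions are not reported here.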

Additional observations from a re-analysis of the deposited data

How the results depend on the processing

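The count of 881 rose to 3920 when the 4 second-series lists were cut to the shortest (28580 peaks), was 659 with −log10 q of at least 5, 944 with a peak over 50% of the region, 799 with no DMSO_50K peak within 500 bp and 831 without chromosome 4, and ran from 1085 to 4344 when a library was left out: 3074 and 4344 without Citraconate_50K replicate 1 and 2, and 1085 and 1641 without DMSO_50K replicate 1 and 2. These counts do not say which regions were shared. The 12 regions near NRF2 targets fell to 6 with −log10 q of at least 5, were 16 with the lists cut, and ran from 13 to 30 with a library left out (20 and 30 without Citraconate_50K replicate 1 and 2). In all of these settings they were a lower share of the regions called than 12 of 881. The 136 regions in both ZR_dmCitra and neither ZR list fell to 31 with all first-series lists cut to the shortest, and ran from 185 to 198 with a library left out. With that cut, ZR_dmCitra minus ZR_DMSO turned to -2.50 points and ZR_GSK343 minus ZR_DMSO to -0.738; ZR_DMSO replicate 1 is the shortest list, and the cut shortens the ZR_dmCitra lists from 44206 and 42591 peaks on chromosomes 1 to 19 to 11806. ZR_dmCitra minus ZR stayed above 0 under each of the 10 alternatives, from 5.22 to 27.7 points, with 20.1 to 23.3 when a library was left out, and ZR minus EV was 0.284 with the lists cut. Without 1 library, ZR_GSK343 minus ZR_DMSO ran from 3.06 to 30.9 points. After the percent of all second-series regions was subtracted from each library, fusion minus EV was 13.8 points (exact permutation p = 0.0444, the smallest that 45 splits allow). The 8 fusion libraries pool 4 treatments and are not replicates of a single condition, so no conclusion is drawn from that p. With the replicate number as a block, the ZR_dmCitra minus ZR difference was again 21.7 points (exact sign-flip permutation p = 0.5, the smallest 2 pairs allow), and same-numbered libraries deviated together with correlations between -0.0484 and 0.0920, so the numbers are not treated as pairs. The alternatives for the gene list and for the region counts in ZR_dmCitra and ZR were chosen after seeing the data.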
